A study of Caenorhabditis elegans with 4 samples.

Results

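The mitochondrial ribosomal protein (MRP) genes encode the protein part of the ribosome that works inside mitochondria. Members were all genes of the count table whose WormBase symbol starts with mrpl- (named for the large subunit) or mrps- (named for the small subunit). This rule found 69 of the 20392 counted genes, of which 40 were mrpl genes and 29 were mrps genes. The name table held 70 such symbols, and mrpl-42 had no row in the counts and was not analysed here. All 69 passed the filter on low counts that left 14029 genes for testing, so that no member was lost to it.

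The RIP-seq experiment compared the RNA recovered with the TRIM-NHL protein LIN-41 of C. elegans (CeLIN41) on anti-FLAG beads (IP) with the RNA of the lysate that went onto the beads (input). There were 2 IP libraries and 2 input libraries, paired by 2 biological replicates, whose worms were grown in separate weeks. All 4 libraries came from whole young adult worms of the same genotype, lin-41(rrr3) with the single-copy insertion rrrSi367, which expresses FLAG-GFP-TEV-LIN-41 from the lin-41 promoter with the full-length lin-41 3′UTR and carries unc-119(+). Both fractions therefore carried the same alleles, and a mock IP was not analysed here, so RNA held by CeLIN41 and RNA held by the beads or the tag cannot be told apart.

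Mitochondria keep a small genome of their own, and its messages for respiratory chain subunits are read by a ribosome that resembles the bacterial one. The rRNAs of this ribosome are transcribed in the mitochondrion, whereas its proteins are encoded in the nucleus, translated in the cytosol and imported. Many of these proteins have a bacterial counterpart, and others are found only in mitochondria. In worms, lowering mrps-5 or other members by RNAi is known to induce the mitochondrial unfolded protein response and to lengthen life. In adult worms mitochondrial DNA is amplified in the germline, and CeLIN41 is present in oocytes.

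Counts came to between 33455857 and 40743247 per library, the inputs being the shallower pair on average. The mRNA of the bait, lin-41, had 12953 and 8588 counts in the IPs, against 677 and 543 counts in the inputs. The labelled tissue is the whole worm, and the 6 oocyte markers, 5 intestinal, 4 muscle, 4 hypodermal and 4 neuronal markers that were looked up had counts in every library, as did 2 of 5 sperm markers. The oocyte markers summed to 6620 and 7290 CPM (counts scaled to library size) in the IPs, against 2840 and 3070 CPM in the inputs, whereas the intestinal markers summed to 1010 and 714 CPM in the IPs, against 3680 and 2560 CPM in the inputs. The oocyte set includes lin-41, so its sum is not independent of the rise of the bait mRNA. The muscle, hypodermal, neuronal and sperm sums were also lower in both IPs than in both inputs. The part of tissue of origin in the values below was not tested. In a lysate of whole worms, fewer cells of a type and less RNA per cell cannot be told apart.

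Messages of mitochondrial ribosomal proteins made up a smaller share of the IP than of the input. They held 0.281% and 0.247% of the counts in the IPs of replicates 1 and 2, against 0.498% and 0.496% of the counts in the inputs. The IP shares lay below both input shares. A lower value in the IP is common on this scale, on which the median log2 IP enrichment (library size only) was -1.17 over the members and -0.91 over all tested genes. The difference in share was small beside that of the cytosolic ribosomal protein mRNAs, which held 3.47% and 2.48% of the IP counts, against 16.5% and 16.1% of the input counts. The genes of the nuclear-encoded respiratory chain held 0.756% and 0.567% of the IP counts, against 2.54% and 2.45% of the input counts.

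IP enrichment was the quantile-normalized log2 value of a gene in the IP minus that in the input of the same replicate, from library-size-scaled counts with a pseudocount of 8. The median log2 IP enrichment over the 69 MRP genes was -0.60 in replicate 1 and -0.58 in replicate 2, and -0.59 for the replicate mean. Over all 14029 tested genes the median was -0.11. The members had means from -1.57 to 0.60 and an SD across members of 0.50, compared with 1.1 across all tested genes. The SD was 0.55 across the cytosolic ribosomal protein genes and 0.39 across the respiratory chain genes. A narrow range was therefore not particular to the members. The pooled SD between replicates within a member was 0.08, so that the range of the members was much wider than the replicate error. Enrichment was below 0 in both replicates for 58 members, compared with 47.9% of all tested genes. It was above 0 in both for 10 members, compared with 38.5% of all tested genes, and of mixed sign for 1. The log2 IP enrichment was -1 or lower in both replicates for 8 members, compared with 12.4% of all tested genes, and it reached 1 in both replicates for 0 members, compared with 11.8% of all tested genes.

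A test per gene came from edgeR's quasi-likelihood method on raw counts, with TMM scaling and a replicate block, and p-values were Benjamini-Hochberg adjusted over all 14029 genes at a threshold of 0.05. Of the 69 members, 35 were depleted and 18 were enriched in the IP, and 16 were neither. Among all tested genes 35.4% were depleted and 32.9% were enriched, so the share of depleted members (50.7%) lay above the background and the share of enriched members (26.1%) below it. That background was not matched for level. The median normalized log2 input was 11.12 in the members and 8.19 in all tested genes, and the part of level in these shares was not tested. The median log2 fold change was -0.24 over the members and -0.14 over all tested genes. This design has 1 residual degree of freedom, and the spread was therefore borrowed entirely across genes, so that the p-values do not reflect how a single gene varied. The split between enriched and depleted depends on the scaling. With scaling by library size only, 61 members were depleted and 0 were enriched (edgeR, adjusted p; also 0 at an unadjusted p of 0.05, and 17 enriched by DESeq2 with its own size factors), compared with 66.5% and 11.9% of all tested genes. The median log2 fold change was then -1.18 over the members and -1.07 over all tested genes.

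The scalings mostly kept the order of the members, but the shift between quantile normalization and TMM varied between genes. At the extremes, mrpl-44 went from -1.50 with quantile normalization to -0.75 with TMM, whereas mrps-31 went from -0.17 to -0.51. TMM factors placed a member higher than quantile normalization by a median of 0.39 log2 units, while over all tested genes TMM placed values lower by a median difference of -0.16. Library size alone placed a member at a median difference of -0.54 from quantile normalization. Across the 69 members, Spearman's rho was 0.922 between the quantile-normalized and the TMM-scaled enrichments and 0.931 between the quantile-normalized and the library-size-scaled ones, as a description of values that share the same libraries. All 35 genes that were depleted with TMM were below 0 in both replicates after quantile normalization. They were also depleted with library size only. That second result follows from the scalings and is no separate support. Library size only placed the members lower than TMM did by about 0.93 log2 units. Of the 18 enriched with TMM, 10 were above 0 in both replicates after quantile normalization, 7 were below 0 in both and 1, mrpl-30, was mixed. With all 3 scalings, 44 members were below 0 and 4 were above 0 in both replicates. The same counts were not made over all tested genes. After quantile normalization alone, 47.9% of all tested genes were below 0 and 38.5% above 0 in both replicates.

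**Figure D1:**
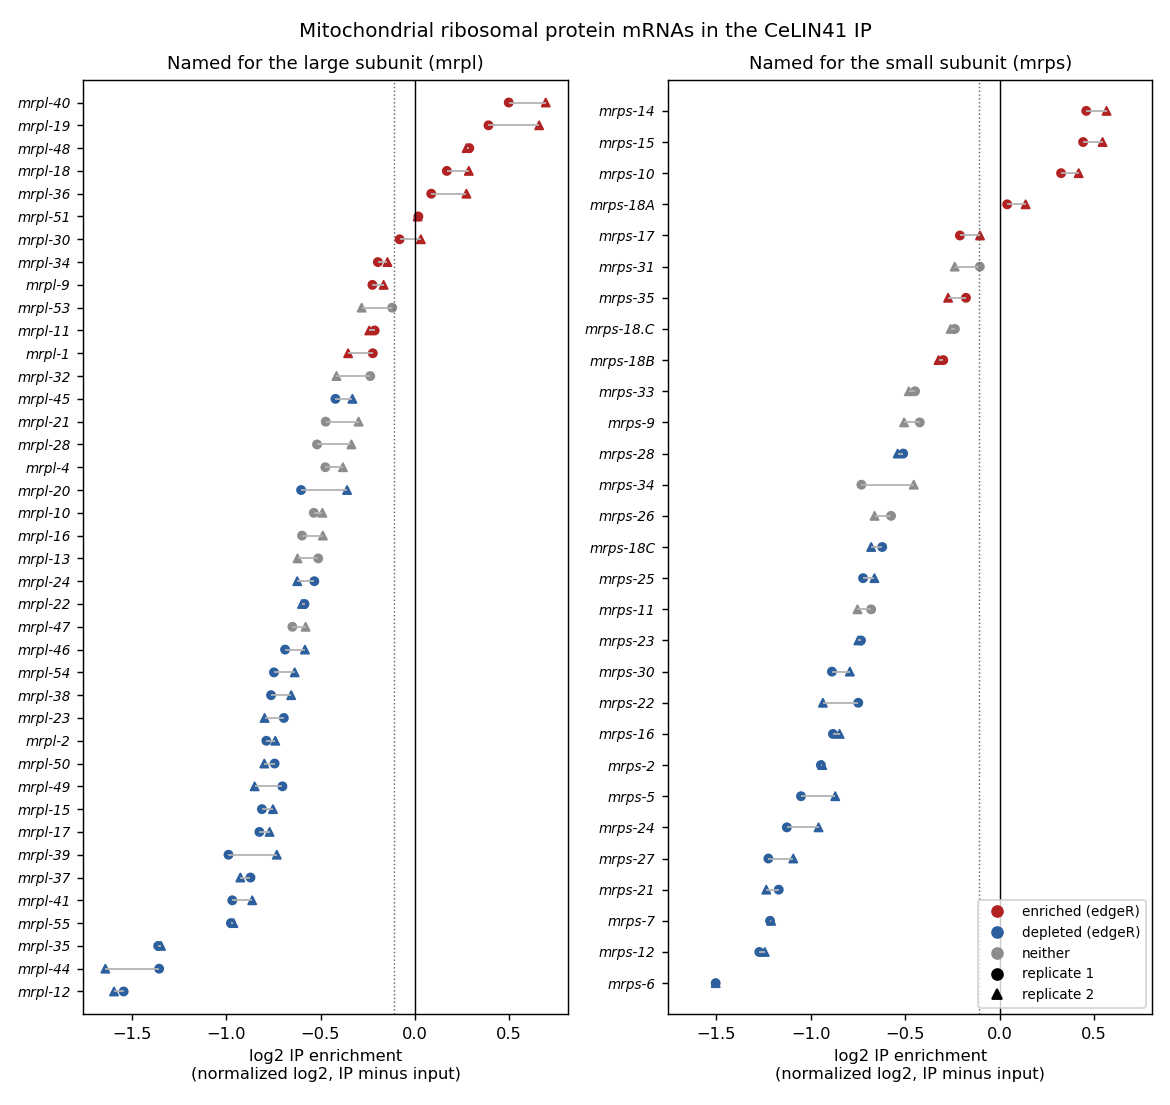
Log2 IP enrichment (quantile-normalized log2 value, IP minus input of the same replicate) of each of the 40 mrpl and 29 mrps genes, with a circle for replicate 1, a triangle for replicate 2 and colours for the edgeR call. The solid line is 0 and the dotted line is the median of all tested genes, -0.11. Both panels run over nearly the same range, and replicates of a gene lie much closer together than the ends of the list.

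**Figure D2:**
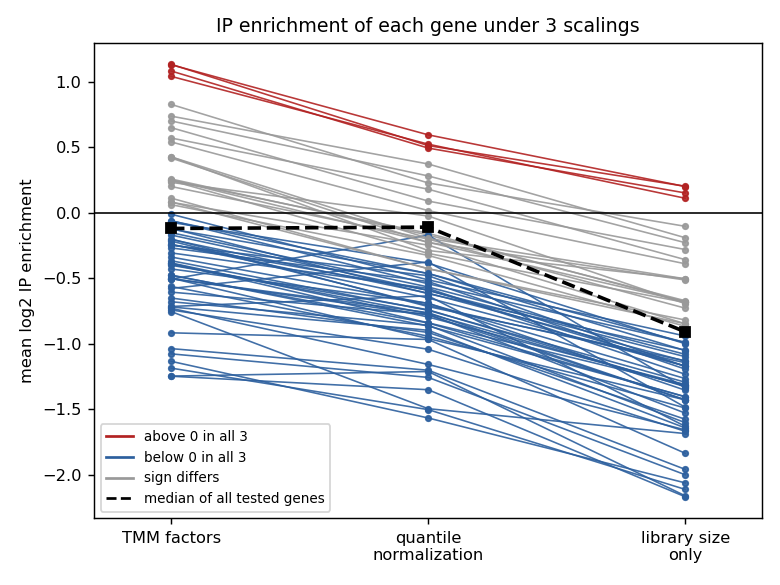
Mean log2 IP enrichment of each of the 69 genes with TMM factors, with quantile normalization and with library size only, with lines joining a gene. The 4 red lines stay above 0, and the dashed line is the median of all tested genes. The steps to and from quantile normalization differ in size between genes.

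The 4 members that lay above 0 with all 3 scalings were mrpl-40, mrpl-19, mrps-14 and mrps-15. The gene mrpl-40 (WBGene00018793, chromosome III), which encodes a mitochondria-specific protein of the large subunit, had 3413 and 3404 counts in the IPs, against 2537 and 2808 counts in the inputs. Its log2 IP enrichment was 0.50 and 0.69, the highest mean of the list at 0.60 ± 0.14 (SD, n = 2), or 1.51-fold. The log2 fold change from edgeR was 1.13 (SE 0.10, adjusted p = 1.52e-27). Here the SE is the size of the fold change over the root of its F statistic.

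For mrpl-19 (WBGene00022470, chromosome I), whose bacterial counterpart sits at the interface between the subunits, 2961 and 3242 counts were found in the IPs, against 2420 and 2755 counts in the inputs. Its log2 IP enrichment was 0.39 and 0.66. The genes mrps-14 (WBGene00011334, chromosome II) and mrps-15 (WBGene00010624, chromosome I) encode small-subunit proteins. Bacterial S14 lies in the head of that subunit, and S15 binds its rRNA early in assembly. There were 4341 and 4356 counts of mrps-14 in the IPs, against 3129 and 3697 in the inputs, and its log2 IP enrichment was 0.46 and 0.57. There were 3827 and 3950 counts of mrps-15 in the IPs, against 2866 and 3462 in the inputs, and its log2 IP enrichment was 0.44 and 0.55. For mrpl-19, mrps-14 and mrps-15 the log2 fold changes from edgeR were 1.04, 1.14 and 1.09, and both normalized IP values exceeded both input values. These differences of 1.41-fold to 1.51-fold after quantile normalization were above the replicate SDs of 0.07 to 0.19 log2 units. With library size only, the log2 fold changes of these 4 genes were 0.11 to 0.20 and none was called (smallest adjusted p = 0.266, edgeR), so that the calls rest on the scaling.

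Next in order were mrps-10 and mrpl-48. The mRNA of mrps-10, whose bacterial counterpart lies in the head of the small subunit, had 1671 and 1583 counts in the IPs, against 1568 and 1783 in the inputs, with log2 IP enrichments of 0.33 and 0.42. For mrpl-48 there were 2068 and 1916 counts in the IPs, against 1915 and 2304 in the inputs, with log2 IP enrichments of 0.29 and 0.27. Both were enriched in the edgeR test, at log2 fold changes of 0.74 and 0.70, and both fell below 0 with library size only. The other members above 0 in both replicates were mrpl-18, mrpl-36, mrps-18A and mrpl-51, with means between 0.23 and 0.02.

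At the other end, mrpl-12 had the lowest mean log2 IP enrichment. It encodes the counterpart of bacterial L7/L12, the flexible stalk protein that receives translation factors. The gene mrpl-12 (WBGene00012361, chromosome III) had 1145 and 882 counts in the IPs, against 3600 and 4022 counts in the inputs. Its log2 IP enrichment was -1.54 and -1.59, a mean of -1.57 ± 0.04 (SD, n = 2), which places the IP at 0.337 times the input. The log2 fold change from edgeR was -1.14 (SE 0.10, adjusted p = 2.48e-27). Both IP values lay far below both input values.

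The partners of mrpl-12 in the stalk region did not sit with it. The protein of mrpl-10 anchors the L7/L12 type proteins in bacteria and mitochondria, and that of mrpl-11 forms the base of the stalk. The gene mrpl-10 had 2122 and 1880 counts in the IPs, against 3224 and 3713 in the inputs, with log2 IP enrichments of -0.54 and -0.49. The gene mrpl-11 had 3903 and 3236 counts in the IPs, against 4327 and 4827 in the inputs, with log2 IP enrichments of -0.21 and -0.24. The edgeR log2 fold change was -0.01 for mrpl-10, which did not pass the threshold (adjusted p = 0.927), and 0.42 for mrpl-11 (adjusted p = 1.00e-04, edgeR with TMM). With library size only mrpl-11 was at -0.52 and depleted, so its direction depends on the scaling, whereas mrpl-12 was lower than both partners with each scaling.

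The other 5 of the 6 lowest members were mrps-6, mrpl-44, mrpl-35, mrps-12 and mrps-7. The gene mrps-6, whose bacterial counterpart pairs with S18 on the platform of the small subunit, had 796 and 620 counts in the IPs, against 2667 and 2862 in the inputs, and a log2 IP enrichment of -1.50 in each replicate. The gene mrpl-44, which encodes a mitochondria-specific protein with a fold related to ribonuclease III, had 3722 and 2953 counts in the IPs, against 8574 and 10802 in the inputs, the highest input counts of the list. In a later annotation it overlaps mccc-2 on the same strand by 2632 bases, and mccc-2 has no row in the counts. The counted model of mrpl-44 is 3706 bases long, whereas the later one has a coding length of 1182 bases and a 3′UTR of 578 bases, so its counts may include reads of mccc-2 and its values may not be those of mrpl-44 alone. Its log2 IP enrichment was -1.35 and -1.64, and its replicate SD of 0.20 was the largest of any member. Its log2 fold change with TMM was -0.76, compared with -1.04 for mrps-21 and -0.93 for mrpl-55, which lay above it after quantile normalization, so that its place among the lowest depends on the scaling.

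For mrpl-35, a large-subunit protein shared with bacteria, 392 and 316 counts in the IPs compared with 1407 and 1499 in the inputs, with log2 IP enrichments of -1.36 and -1.34. The gene mrps-12 encodes the counterpart of bacterial S12, which lines the decoding centre. It had 527 and 423 counts in the IPs, against 1673 and 1778 in the inputs, and log2 IP enrichments of -1.27 and -1.24. For mrps-7, counterpart of the assembly-nucleating S7 in the head of the bacterial small subunit, 276 and 218 counts in the IPs compared with 987 and 1044 in the inputs, with log2 IP enrichments of -1.22 and -1.21. In all of these genes both IP values were below both input values. Over the 6 lowest members the log2 fold changes from edgeR lay between -1.27 and -0.76, and each was depleted (adjusted p of 1.54e-11 or less, edgeR with TMM). The bacterial counterparts of mrps-7, mrps-10 and mrps-14 lie in the same part of the subunit. The log2 fold change was -1.27 for mrps-7, compared with 0.74 for mrps-10 and 1.14 for mrps-14. These genes were named for their place at an end of the list, so their contrast does not describe that part of the subunit as a whole.

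Levels per length were taken as RPKM, counts scaled by library size and by the length of the gene model. In the IPs the members ranged from 0.988 to 154 RPKM with a median of 32.9. In the inputs they ranged from 2.76 to 184 RPKM with a median of 77.7, and 54 of 69 lay between 50 and 150 RPKM. The spread of log2 RPKM across members was 1.2 (SD) in the IPs and 0.90 in the inputs, so the members were less even in the IP. On this scale 65 members were lower in the IP than in the input in both replicates. The same share over all tested genes was not counted. Lower values were common among them, with 66.5% depleted by edgeR with library size only.

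The highest level per length in the inputs was that of mrpl-11, at 129 ± 20.04 RPKM in the IPs and 184 ± 5.35 RPKM in the inputs (SD, n = 2 each). It was followed by mrpl-36, at 137 ± 12.3 RPKM in the IPs and 176 ± 13.9 RPKM in the inputs, by mrpl-12, at 38.9 ± 8.01 RPKM in the IPs and 162 ± 4.54 RPKM in the inputs, and by mrpl-18, at 141 ± 0.444 RPKM in the IPs and 152 ± 4.604 RPKM in the inputs. In the inputs, mrpl-36 differed from mrpl-11 and from mrpl-12 by less than the sum of their SDs. The fifth was mrps-11, at 62.2 ± 7.33 RPKM in the IPs and 136 ± 4.76 RPKM in the inputs. Among these 5 genes mrpl-12 changed rank most, with rank 30 in the IPs, against rank 3 in the inputs. The gene mrps-14 had rank 1 in the IPs, at 154 ± 3.18 RPKM, against rank 6 in the inputs, at 134 ± 1.54 RPKM. The counts of mrpl-36 were 1784 and 1623 in the IPs, against 1928 and 2004 in the inputs, and those of mrpl-18 were 3593 and 3729 in the IPs, against 3214 and 3900 in the inputs. For mrps-11 they were 2029 and 1774 in the IPs, against 3391 and 4142 in the inputs.

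The lowest member per length was mrps-31, with 53 and 38 counts in the IPs, against 117 and 111 counts in the inputs. At these counts it was the least precise member, and its log2 fold change of -0.56 had an SE of 0.27 (adjusted p = 0.0547, edgeR), compared with 0.10 for mrpl-40. It was followed by mrpl-45, which in mammals tethers the ribosome to the inner membrane, at 4.56 ± 1.07 RPKM in the IPs and 13.04 ± 2.13 RPKM in the inputs, and which was depleted at a log2 fold change of -0.59. The pseudocount of 8 pulls the enrichment of such genes towards 0. Over all members, counts per library ran between 38 and 4761 in the IPs and between 111 and 10802 in the inputs.

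**Figure D3:**
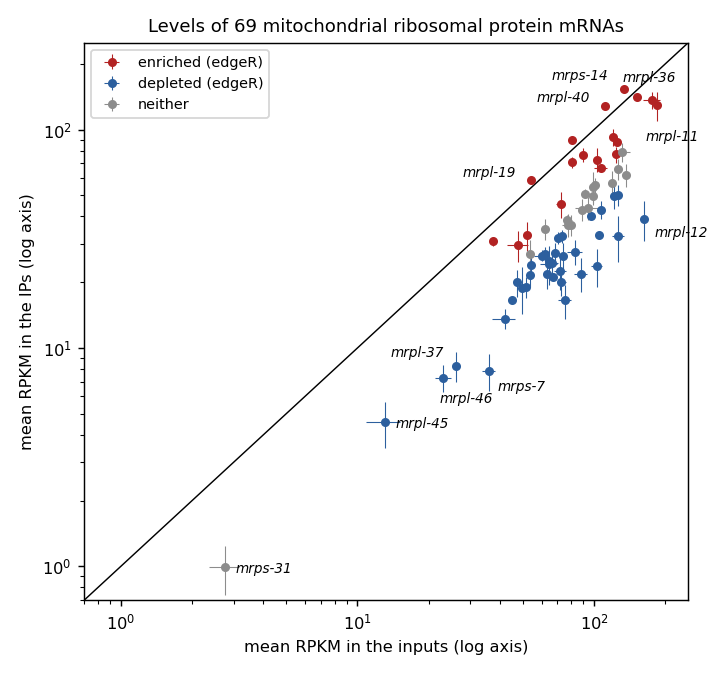
Mean RPKM in the IPs against mean RPKM in the inputs for the 69 genes, on log axes, with SDs of 2 replicates as bars and colours for the edgeR call. The line marks equal RPKM. Most genes lie below it, mrps-14 and mrpl-40 above it, and mrpl-12 has the lowest IP level of the 5 genes that were highest in the inputs.

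Sorted by subunit name, 20 of 40 mrpl genes were depleted and 11 enriched, and 15 of 29 mrps genes were depleted and 7 enriched. The median log2 IP enrichment was -0.55 for the mrpl genes and -0.65 for the mrps genes, a difference of 0.10 that is small beside the SDs of 0.48 and 0.52 across the members of each. The prefix follows the human names and is not an exact map of the subunits, since the mammalian proteins MRPS30 and MRPS18A are part of the large subunit. Members whose human namesake is mitochondria-specific had a median of -0.69, with 15 of 24 depleted and 4 enriched. Members whose human namesake has a bacterial counterpart had a median of -0.53, with 20 of 45 depleted and 14 enriched. Among the first kind, mrps-27, an RNA-binding pentatricopeptide repeat protein in mammals, was at -1.16 ± 0.09 and mrpl-37 at -0.90 ± 0.04 (SD, n = 2). The highest of all members, mrpl-40, is also of this kind, at 0.60 ± 0.14. Above 0 in both replicates were 3 of 24 members of the first kind and 7 of 45 of the second. The difference between both kinds was not tested.

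Of the other members chosen by role, mrpl-2, mrps-2 and mrps-5 were depleted. The gene mrpl-2, whose bacterial counterpart lies close to the peptidyl transferase centre, had 727 and 715 counts in the IPs, against 1595 and 1945 in the inputs, at log2 IP enrichments of -0.79 and -0.74. The gene mrps-2 had 1139 and 959 counts in the IPs, against 2506 and 2822 in the inputs, at -0.95 and -0.94. For mrps-5, the member known from lifespan studies, 1532 and 1339 counts in the IPs compared with 3380 and 3593 in the inputs, at -1.05 and -0.87. In mrpl-2, mrps-2 and mrps-5 the IP values lay below the input values in both replicates. Their log2 fold changes from edgeR were -0.51, -0.57 and -0.50, and the largest adjusted p of these was 7.86e-06.

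The genes named after S18 offer a comparison within a family. The counts hold mrps-18A, mrps-18B, mrps-18C and mrps-18.C, and the last pair are separate genes, mrps-18C on chromosome III and mrps-18.C on chromosome II. The gene mrps-18A had 3154 and 3039 counts in the IPs, against 3136 and 3659 in the inputs, at log2 IP enrichments of 0.04 and 0.14. The gene mrps-18B had 2703 and 2475 counts in the IPs, against 3406 and 4124 in the inputs, at -0.30 and -0.32. The gene mrps-18.C had 1149 and 1063 counts in the IPs, against 1627 and 1984 in the inputs, at -0.24 and -0.26. The gene mrps-18C had 1422 and 1209 counts in the IPs, against 2454 and 2896 in the inputs, at -0.62 and -0.68. The distance between mrps-18A, the highest, and mrps-18C, the lowest, exceeded the replicate SDs of 0.02 to 0.07, whereas mrps-18.C and mrps-18B lay close together and change places with TMM. With TMM, mrps-18A was enriched at 0.65, mrps-18B was enriched at 0.25 (adjusted p = 0.0232, edgeR; no longer called without the replicate block, 0.0822), mrps-18.C was at 0.08 and not called, and mrps-18C was depleted at -0.24 (adjusted p = 0.0263, edgeR; 0.0781 without the block). With the block kept, the call for mrps-18C was also lost by DESeq2 (0.334) and with RLE factors (0.115), and that for mrps-18B with no filter (0.109) and with at least 10 counts in every library (0.123). In fits without the block, the call for mrps-18C was lost with each library left out, and that for mrps-18B with each left out but IP replicate 1. With library size only, mrps-18A and mrps-18B lay at -0.28 and -0.69. The counted model of mrps-18A is 2513 bases long, whereas the later one has a coding length of 549 bases and a 3′UTR of 236 bases. In the later annotation it overlaps iglr-2 on the same strand by 419 bases. Its values, and its place as the highest of these genes, may therefore not be those of mrps-18A alone. The treatment of reads that match several genes was not stated.

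The gene mrpl-30 changed sign between replicates, with 993 and 814 counts in the IPs, against 1308 and 1321 in the inputs, and log2 IP enrichments of -0.08 and 0.03. Its normalized IP and input values overlapped. The edgeR test called it enriched at a log2 fold change of 0.23 (adjusted p = 0.0482), and among the other fits this call was kept with RLE size factors alone. The adjusted p was 0.0579 by DESeq2 and 0.127 without the block, and with library size only the gene was depleted at -0.70. Besides mrpl-30, the normalized values overlapped in mrps-17. Both IP values were below both input values in 57 members, compared with 43.4% of all tested genes, and above both in 10, compared with 35.2% of all tested genes.

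Members lay on every autosome and none lay on X, which holds 1951 of the tested genes (13.9%). Chromosome III carried 22 members, with a median log2 IP enrichment of -0.38, 8 enriched and 7 depleted, compared with 38.5% and 33.1% of all tested genes on it. Chromosome I carried 15 members (median -0.69, 4 enriched, 9 depleted), compared with 38.1% enriched and 33.2% depleted among all its tested genes. On II, IV and V, with 12, 10 and 10 members, the medians were -0.50, -0.73 and -0.75, 2 members were enriched on each, and 6, 7 and 6 were depleted. Of all tested genes on II, IV and V, 34.9%, 33.8% and 27.2% were enriched, and at most 37.5% were depleted on each. Chromosomes are from Ensembl (WBcel235), which is later than the build used for counting, and coordinates are therefore not given. Neither the length of the gene model (Spearman's rho -0.0463, n = 69) nor the annotated length of the 3′UTR (0.0475, n = 68) went with IP enrichment among the members, as a description across genes that share 4 libraries. The level in the inputs did so weakly at most, with a rho of 0.178 for log2 RPKM. The median annotated 3′UTR was 111 bases in the members and 138 bases in all tested genes with an annotated one.

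In the same annotation 22 members overlapped another gene. In 19 of them that gene was also counted, in 5 on the same strand, and the other 3 were mrpl-44 with mccc-2, mrps-2 with a snoRNA gene on the same strand (89 bases) and mrpl-41 with an ncRNA gene on the opposite strand (55 bases). The gene mrpl-1 shared 510 bases of its span with emc-6, and mrps-18A shared 419 bases with iglr-2. The mean log2 IP enrichments were -0.29 ± 0.09 for mrpl-1 and 0.31 ± 0.07 for emc-6, and 0.09 ± 0.07 for mrps-18A and 0.34 ± 0.02 for iglr-2 (SD, n = 2). The gene mrps-16 shared 175 bases with ilcr-2, and mrps-16 was at -0.87 ± 0.03 while ilcr-2 was at 1.65 ± 0.19. Among pairs on opposite strands, mrps-35 was at -0.23 ± 0.07 and sws-1 at 2.97 ± 0.17, and mrps-23 was at -0.74 ± 0.01 and prp-40 at 0.34 ± 0.01. The libraries were stranded, but use of strand in counting was not stated, so values of overlapping pairs are less certain. Without the 19 members the median log2 IP enrichment of the other 50 was -0.62. Without all 22 it was -0.59 over 47 members, of which 25 were depleted and 10 enriched (53.2% and 21.3%).

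Other genes of mitochondrial gene expression also fell on both sides. Of 25 listed factors (DNA and RNA polymerase, tRNA synthetases, assembly and translation factors), 11 were depleted, 12 were enriched and 2 were neither, with a median log2 IP enrichment of -0.20, and with library size only 20 were depleted and 1 was enriched. The 2 genes for the elongation factor that delivers tRNAs differed: tufm-1 had 5201 and 3933 counts in the IPs, against 8892 and 10567 in the inputs, at log2 IP enrichments of -0.96 and -1.24, whereas tufm-2 had 4861 and 4618 counts in the IPs, against 2700 and 3468 in the inputs, at 0.85 and 0.74. Their log2 fold changes were -0.32 and 1.41. The small-subunit protein dap-3, a mitochondrial ribosomal protein by its human counterpart but without the prefix, was at -0.96 and -0.82 and was depleted. The exchange factor tsfm-1 was at 0.29 and 0.53 and was enriched, and gfm-1, an elongation factor G, was at -0.37 and -0.64 and was not called. Of the assembly GTPases, eral-1 at 0.14 and 0.13, mtg-1 at 0.42 and 0.43 and noa-1 at 0.53 and 0.59 were enriched.

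Of 13 genes of the mitochondrial stress response 7 were depleted and 5 enriched (11 and 1 with library size only), with a median of -0.79. The chaperone genes hsp-60 and hsp-6 were at -2.23 ± 0.28 and -1.51 ± 0.22 and were depleted, and the transcription factor gene atfs-1 was at -0.31 ± 0.06 after quantile normalization but enriched with TMM at a log2 fold change of 0.29. The 12 genes of the mitochondrial genome, whose messages these ribosomes read, had a median of -0.35, with 6 enriched, 1 depleted and 5 neither, and with 1 enriched and 7 depleted with library size only. They were taken by chromosome, since the name table held none of the symbols listed for them.

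Against these lists the cytosolic ribosomal protein genes and the nuclear respiratory chain genes stood lower. All 79 tested cytosolic ribosomal protein genes were depleted, with a median log2 IP enrichment of -2.37, and 61 of 62 respiratory chain genes were depleted, with a median of -1.73. In neither list was a gene enriched (0 by edgeR with adjusted p, 0 at an unadjusted p of 0.05 and 0 by DESeq2). The highest member of the cytosolic list was at -0.97 and the lowest mitochondrial ribosomal protein gene at -1.57, and the lists overlapped between these values. With library size only, all 79 and all 62 genes of these lists were depleted. With TMM factors the medians were -0.24 for the mitochondrial and -1.58 for the cytosolic ribosomal protein genes. The lists also differ in level, with a median normalized log2 input of 11.12 in the mitochondrial, 16.02 in the cytosolic ribosomal protein and 13.29 in the respiratory chain genes, and the part of level in this difference was not tested.

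**Figure D4:**
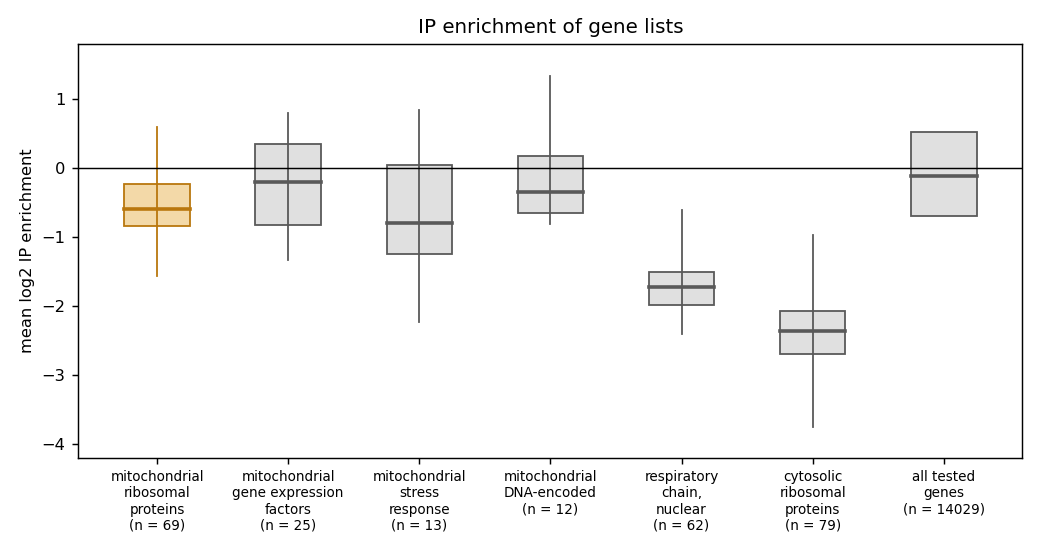
Mean log2 IP enrichment of the mitochondrial ribosomal protein genes, of 5 other lists and of all tested genes, with the median as a bar, the quartiles as a box and the lowest and highest gene as a line (not drawn for all tested genes). The box of the mitochondrial ribosomal protein genes lies at -0.84 to -0.23, above those of the respiratory chain genes (-1.98 to -1.51) and of the cytosolic ribosomal protein genes (-2.70 to -2.07).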

How the data were processed

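The authors quantified genes on assembly ce10 with WormBase WS220 models and deposited raw whole-number read counts per gene beside gene model lengths. The aligner and counter were not given in the sources used here. They also deposited log2 values, made by library size scaling, a pseudocount of 8 and quantile normalization. These steps, applied to the counts, gave all 81568 deposited log2 values to within 1e-06. Genes were tested with edgeR 4.0.16 in R 4.3.3 (filterByExpr, TMM scaling, the replicate as a block, a common dispersion of 0.00612). The block follows the study, which subtracts the input of the same replicate, and replicates were grown in different weeks. The differences between replicates in IP and input correlated at r = 0.286 over 14029 genes.

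Alternatives were DESeq2 1.42.0, no block, library size only, RLE factors, a minimum of 10 counts in each library or no filter, each library left out, TMM factors, a pseudocount of 1, the deposited values and each replicate alone. Leaving out members that overlap counted or annotated genes was added after the values were seen. On simulated counts for IP against input (13929 genes tested), edgeR recovered 99 of 100 genes changed by 1 on the log2 scale, with 8 false calls. DESeq2 recovered 85 of 100, with 0 false calls. The simulation used the common dispersion for every gene and changed few genes, as many up as down. It therefore cannot show which scaling of the IP against the input is right. Symbols came from a table that matched 19182 of 20392 identifiers. Members and lists were chosen with earlier results of these data known. Named with full values were the 6 highest and 6 lowest members, the 5 of highest input RPKM, members chosen by role, the genes named after S18 and any member of mixed sign. Other genes were named as examples after their values were seen. Python 3.11.15, pandas 2.3.3, scipy 1.17.1 and matplotlib 3.10.9 served the other steps.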

Additional observations from a re-analysis of the deposited data

How the results depend on the processing

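Without the replicate block edgeR called 13 members enriched and 30 depleted, compared with 18 and 35 with it (30.4% and 30.9% of all tested genes without it, 32.9% and 35.4% with it). With library size only, 0 members were enriched and 61 depleted. DESeq2 gave 17 enriched and 27 depleted members (30.8% and 23.5% of all tested genes). RLE factors gave 20 and 30 (34.9% and 31.8% of all tested genes). With 1 library left out no block was used, since the block would leave no residual degree of freedom. The median log2 fold change was then -0.29 to -0.17 over the members and -0.17 to -0.11 over all tested genes. The share over all genes moved too, to 24.1% enriched and 27.2% depleted with no filter (13 and 38 members) and 35.3% and 39.2% with at least 10 counts in every library (13 and 42 members). The median log2 IP enrichment of the members was -1.17 with library size only, -0.24 with TMM factors, -0.60 to -0.58 for single replicates and -0.62 without members that overlap a counted gene. Without members that overlap any annotated gene, 10 of 47 were enriched and 25 depleted. The mrpl minus mrps difference of 0.10 was 0.06 with library size only, 0.06 with TMM factors and 0.12 to 0.13 for single replicates. The number of members at least 2-fold depleted in both replicates was 38 with library size only and 5 with TMM factors, and 8 to 10 for single replicates. The share over all tested genes was counted in both replicates after quantile normalization alone (12.4%), so these numbers have no background beside them. The median over all tested genes also moved, to -0.91 with library size only and -0.12 with TMM factors. The direction of the log2 fold change was turned in 19 of 69 members by library size only, in 4 by DESeq2, in 4 by RLE factors, in 3 with at least 10 counts in every library, in 1 or 2 with a library left out and in 0 with no block or no filter. Among the members named with full values, library size only turned mrpl-11 (-0.52), mrpl-18 (-0.10), mrpl-30 (-0.70), mrpl-36 (-0.36), mrpl-48 (-0.23), mrps-10 (-0.19), mrps-18.C (-0.85), mrps-18A (-0.28) and mrps-18B (-0.69). Among the same genes, at least 10 counts in every library turned mrps-18.C (-0.01), and mrpl-10 was turned by DESeq2 (0.07), RLE factors (0.07) and by leaving out input replicate 2 (0.04). The fits with library size only and with RLE factors differ from the main fit in the scaling alone. The cause of the shifts in the other fits was not tested. Where the zero of the IP to input scale lies is not fixed by these counts, since TMM, quantile normalization and library size place it differently, and counts of enriched and depleted members follow that choice. Outside library size only, no member took the opposite call in another fit, and 5 to 13 of the 53 calls were lost.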
